A study of Mus musculus with 16 samples.

Results

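The genes followed here belong to the junctions and the apical polarity machinery at the ventricular surface, measured in HeCo and wild-type mouse brain. They are Cdh2, Ctnna1, Ctnna2, Ctnnb1, Ctnnd1, Pard3, Pard6a, Prkci, Llgl1 and Numb, and were chosen as named genes of this machinery, through every array probe annotated to them. The 10 genes had 31 of the 45281 probes of the array, and 19 of these probes, for 9 genes, gave enough signal to be compared. Total RNA of brain at embryonic day 18 had been hybridised in 1 colour to 16 Illumina bead arrays. Of these, 8 held RNA of HeCo mutants and 8 RNA of wild-type controls, and every sample was of the strain NOR/CD-1. The HeCo mutation lies in Eml1, the gene of a protein that binds microtubules, and leaves neurons stranded in the white matter under the cortex. The labels give neither the zygosity nor the sex of the embryos, and do not state that the arrays come from different animals, so p-values rest on the spread between samples, which may be technical.

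Radial glia, the stem cells of the developing cortex, line the ventricle and are joined to each other there by a belt of adherens junctions. In these junctions N-cadherin binds its neighbours outside the cell and the catenins inside, which tie it to actin, while the Par complex (Par3, Par6 and atypical protein kinase C) marks the apical membrane and Lgl proteins oppose it. In mice, loss of several of these genes from cortical progenitors breaks up the ventricular lining and misplaces progenitors and neurons. Many of the genes also act in neurons, and in RNA of a whole tissue fewer cells of a type and less RNA per cell cannot be told apart.

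The mean deposited signal of an array was highest on HeCo 15 (597.9) and lowest on wild type 10 (374.9), with 17694 to 19553 probes detected per array. Eml1 checked the labels: its brighter probe was detected on 0 of 8 HeCo arrays and on 8 of 8 wild-type arrays, and its second probe on 8 of 8 HeCo arrays and on 0 of 8 wild-type arrays. All 4 kept neuronal markers and all 7 kept markers of radial glia and apical progenitors were detected on every array. The mean of the radial glia markers lay between -0.26 and 0.03 on HeCo arrays and between -0.11 and 0.10 on wild-type arrays, as log2 difference from the wild-type mean. Averaged over the HeCo arrays it was -0.11, and that of the neuronal markers was 0.02. The known markers Pax6, Neurod6 and Snap25 had no kept probe. Ependymal markers, 4 genes, averaged -0.50 to 0.01 on HeCo arrays and -0.24 to 0.29 on wild-type arrays, and 4 meningeal markers 0.04 to 0.37 on HeCo arrays and -0.52 to 0.37 on wild-type arrays. Over the HeCo arrays the ependymal mean was -0.23 and the meningeal mean 0.20. The part of these cell types in the results below was not tested. Markers of the diencephalon, midbrain and hindbrain, 8 genes, were far lower on HeCo 7 (-2.87) and HeCo 16 (-2.49) than on the other HeCo arrays, where they lay at -0.16 to 0.08, or on wild-type arrays, at -0.37 to 0.14. On these 2 arrays the brightest probes of the 9 measured junction and polarity genes had median differences from the wild-type mean of 0.15 and 0.06. Title numbers run in blocks by group (5 to 8 and 13 to 16 for HeCo, 1 to 4 and 9 to 12 for wild type). An order of handling along them cannot be told apart from genotype. Within the lower and within the higher numbers wild type also comes before HeCo, so the values given there do not separate order from genotype either.

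None of the 19 probes passed the test for a difference between HeCo and wild-type brain. Across the array 16 of 18532 kept probes passed (0.0863%, of which 0.054% higher and 0.0324% lower in HeCo; limma with Benjamini-Hochberg adjustment, threshold 0.05), and the smallest adjusted p of the 19 was 0.655. At an unadjusted p under 0.05 there was 1 of the 19 probes (5.26%), against 6.98% of all kept probes. It was higher in HeCo, as were 3.86% of all kept probes, with 3.12% lower. The arrays of HeCo and wild type overlapped for each of the 19, and failed to overlap for 0.124% of all kept probes. Of the 19 probes 13 had a higher and 6 a lower mean in HeCo, where 9260 of all 18532 kept probes had a higher one, with a median log2 difference of 0.04, against -0.0000626 over all kept probes.

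The intervals say how large a difference these arrays leave possible. For 17 of the 19 probes the 95% interval of the log2 difference lay within 0.5 on either side of 0, a 1.41-fold change. The same held for 17761 of all 18532 kept probes. The exceptions among the 19 were the Cdh2 probe, whose interval reached 0.53, and a dim Ctnnb1 probe, whose interval reached -0.99. Both were among the 7 of the 19 probes detected on only some of the arrays. Close to background the size of a difference moved with the correction for it, as the Cdh2 values below show. The intervals of such probes hold only for the correction used.

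**Figure D1:**
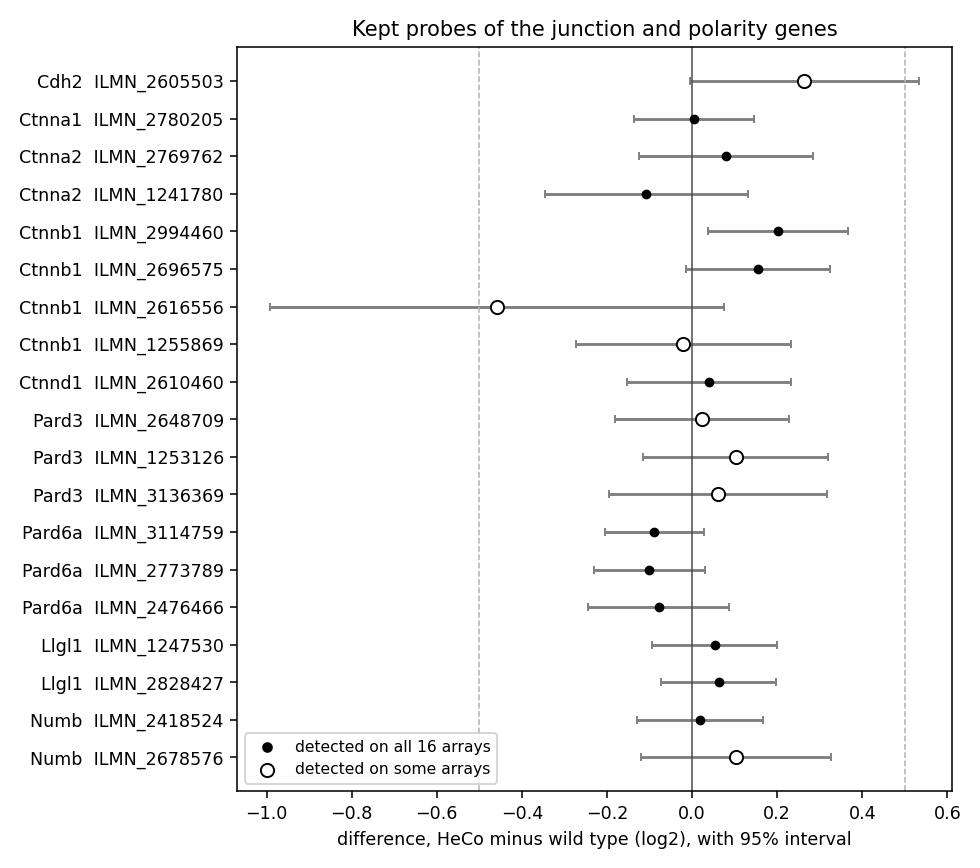
Difference between HeCo and wild type (log2, HeCo minus wild type) for the 19 kept probes, with 95% intervals from limma and dashed lines at -0.5 and 0.5. Filled points are the 12 probes detected on all 16 arrays and open points the 7 detected on some; 17 of the 19 intervals lie between the dashed lines.

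Cdh2 encodes N-cadherin, the main classical cadherin of neural progenitors. Its kept probe (ILMN_2605503) was dim, with deposited signals of 83.1 to 141 on all arrays, and was detected on 7 of 8 HeCo arrays and 3 of 8 wild-type arrays. The log2 signal ran from 4.52 to 5.66 with a median of 5.25 in HeCo, and from 4.64 to 5.32 with a median of 4.95 in wild type. Of the HeCo arrays 7 lay above the wild-type mean, and HeCo 13 lay below every wild-type array. The difference of 0.26 (SE 0.13, 95% interval -0.00605 to 0.53) did not pass (limma adjusted p = 0.718). Without HeCo 13 it was 0.36 (limma adjusted p = 0.398), and without background correction it was 0.10. The other Cdh2 probe (ILMN_1216390) was detected on HeCo 5 and HeCo 13 only, so that the array lowest on the first probe was among the highest on the second.

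The α-catenins link the cadherin complex to actin, Ctnna1 (αE-catenin) in epithelia and progenitors and Ctnna2 (αN-catenin) mainly in neurons. Ctnna1 had a log2 signal of 10.73 to 11.18 with a median of 10.89 in HeCo, and of 10.74 to 11.04 with a median of 10.96 in wild type. The ranges lay almost on top of each other, and the difference was 0.00466 (SE 0.07, 95% interval -0.14 to 0.15), 3 of 8 HeCo arrays being above the wild-type mean. Ctnna2 was given by its brightest probe (ILMN_2769762) at 10.35 to 10.90 with a median of 10.61 in HeCo, and at 10.25 to 10.87 with a median of 10.36 in wild type. In wild type, arrays 1, 11 and 12 lay at 10.76 to 10.87 and the other 5 at 10.25 to 10.39, while the HeCo arrays ran from within the lower of these levels (HeCo 5, 10.35) to above every wild-type array (HeCo 15, 10.90). The difference was 0.08 (SE 0.10, 95% interval -0.12 to 0.28). The dim Ctnna2 probe ILMN_1241780 had -0.11 (SE 0.12). Its difference was 0.19 within description numbers 1 to 8 and -0.41 within 9 to 16. Of the remaining Ctnna2 probes 1 was detected on 3 arrays of each group and 1 on none.

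Ctnnb1 encodes β-catenin, which both binds the cadherin tail and carries the canonical Wnt signal to the nucleus. It held the smallest p of the 10 genes and the largest disagreement between probes of 1 gene. Its brightest probe (ILMN_2994460) had a log2 signal of 11.97 to 12.29 with a median of 12.18 in HeCo, and of 11.54 to 12.21 with a median of 11.97 in wild type. All 8 HeCo arrays lay above the wild-type mean, yet 4 wild-type arrays (1, 3, 4 and 9) lay within the range of the HeCo arrays. The signal was 1.15-fold higher in HeCo (log2 difference 0.20, SE 0.08, 95% interval 0.04 to 0.37), with an unadjusted p of 0.0187 and a limma adjusted p of 0.655. An exact permutation test of this probe alone gave a two-sided p of 0.0235, unadjusted, and was not run on all kept probes. The difference was 0.09 and 0.31 within title numbers 1 to 8 and 9 to 16, 0.25 and 0.15 within description numbers 1 to 8 and 9 to 16, and 0.18 without HeCo 7 and HeCo 16.

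The other Ctnnb1 probes differed from it and from each other. The next brightest (ILMN_2696575) ran from 10.32 to 10.83 with a median of 10.60 in HeCo, and from 10.04 to 10.59 with a median of 10.48 in wild type. Its difference was 0.16 (SE 0.08, limma adjusted p = 0.736), with 6 of 8 HeCo arrays above the wild-type mean. A dim probe annotated to the same RefSeq transcript (ILMN_2616556) pointed the opposite way, at 4.55 to 6.32 with a median of 5.69 in HeCo, and at 5.30 to 7.65 with a median of 6.06 in wild type. Only HeCo 5 lay above the wild-type mean, and the difference was -0.46 (SE 0.26, limma adjusted p = 0.755). The fourth probe (ILMN_1255869), annotated to a cDNA clone, had -0.02 (SE 0.12).

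The disagreement was widest on a pair of arrays. Wild type 10 was the lowest of its group on both bright Ctnnb1 probes (11.54 and 10.04) and the highest on ILMN_2616556 (7.65). HeCo 15 was the highest on both bright probes (12.29 and 10.83) and the lowest on ILMN_2616556 (4.55), where it was not detected. These are also the arrays with the lowest and the highest mean deposited signal. Correlations with the mean signal were computed, but whether the signal level caused the pattern was not tested. Of 10 relations among the 4 probes and the mean signal, 4 passed by Pearson's r and 2 by Spearman's rho after Benjamini-Hochberg adjustment. Over the 16 arrays ILMN_2696575 and ILMN_2616556 had a Pearson's r of -0.83 (permutation p = 0.00064, adjusted 0.0064) and a Spearman's rho of -0.64 (permutation p = 0.00946, adjusted 0.0473). Within HeCo r was -0.81 and within wild type -0.80 (exact p = 0.015 and 0.0785, n = 8 each). Without HeCo 15 and wild type 10 r was -0.44, so the relation rests largely on these arrays. The brightest probe, ILMN_2994460, and ILMN_2616556 had an r of -0.55 (permutation p = 0.0531, adjusted 0.0886) and a rho of -0.15 (permutation p = 0.583, adjusted 0.648), which did not pass. The mean signal and ILMN_2616556 had an r of -0.64 (permutation p = 0.00682, adjusted 0.0227) and a rho of -0.43 (permutation p = 0.102, adjusted 0.256), and r was -0.40 without HeCo 13 and HeCo 15. Within HeCo that r was -0.72 and within wild type -0.72 (exact p = 0.146 and 0.024, n = 8 each). Both bright probes went together, with an r of 0.75 (permutation p = 0.00278, adjusted 0.0139) and a rho of 0.69 (permutation p = 0.0038, adjusted 0.038), and r was 0.76 without wild type 10 and wild type 12. Their r was 0.82 within HeCo and 0.65 within wild type (exact p = 0.0131 and 0.149). ILMN_2616556 and ILMN_1255869 had an r of -0.57 (permutation p = 0.0179, adjusted 0.0449) and a rho of -0.48 (permutation p = 0.0657, adjusted 0.219). This r was -0.85 within HeCo and -0.49 within wild type (exact p = 0.00337 and 0.214), and -0.17 without HeCo 15 and wild type 10. Without HeCo 15 and wild type 10 the differences between HeCo and wild type were 0.12 and 0.06 for the bright probes and -0.08 for ILMN_2616556. That of ILMN_2616556 was -0.30 without HeCo 15 alone and -0.24 without wild type 10 alone.

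**Figure D2:**
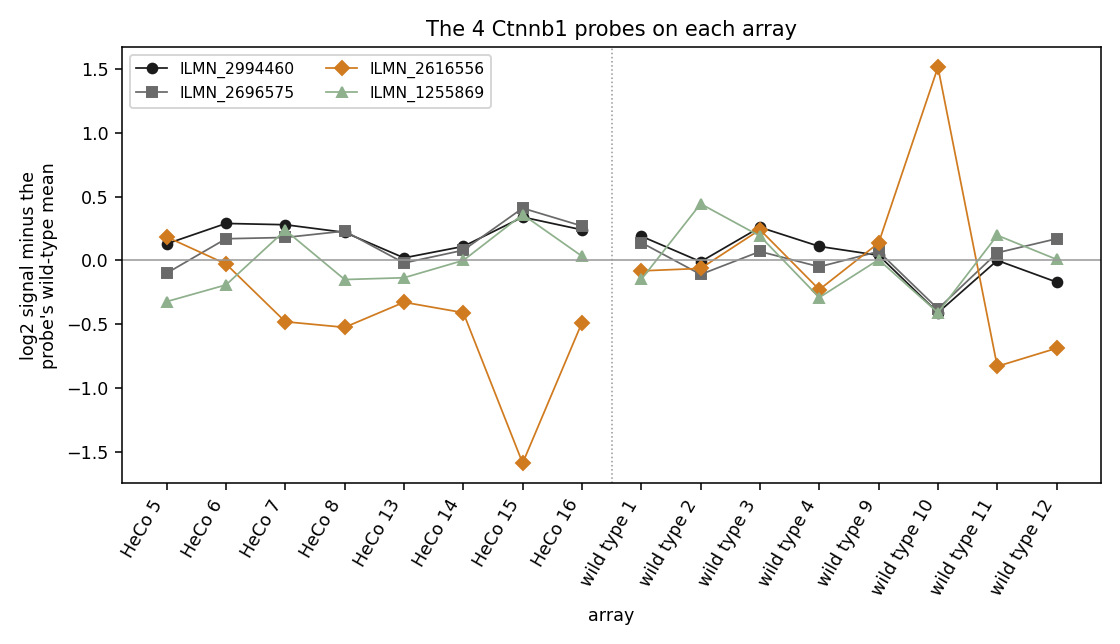
Log2 signal of the 4 Ctnnb1 probes on each of the 16 arrays, as difference from the probe's mean in wild type, with HeCo arrays left of the dotted line and wild-type arrays right of it. The bright probes (black circles and grey squares) peak on HeCo 15, where ILMN_2616556 (orange diamonds) has its lowest log2 signal of 4.55, and are lowest on wild type 10, where it has its highest of 7.65.

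Ctnnd1 encodes p120-catenin, which keeps cadherins at the cell surface. Its kept probe had a log2 signal of 7.07 to 7.62 with a median of 7.43 in HeCo, and of 7.17 to 7.65 with a median of 7.31 in wild type. Wild type 10, 11 and 12 lay at 7.54 to 7.65 and the other wild-type arrays at 7.33 or below, and the HeCo arrays covered both levels. The difference was 0.04 (SE 0.09, 95% interval -0.15 to 0.23). The other 3 Ctnnd1 probes were detected on no array.

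The Par complex was measured through Pard3 and Pard6a only. Pard3 encodes the scaffold Par3, which anchors the complex at the junction, and its 3 kept probes were all dim, with log2 differences of 0.02 (SE 0.10), 0.10 (SE 0.11) and 0.06 (SE 0.12). HeCo 16 was the lowest HeCo array on all 3, at 4.96, 5.06 and 4.81, and the groups overlapped on each. Prkci, which encodes the atypical protein kinase C iota, had 1 probe, detected on 0 of 16 arrays, so nothing is said of its level.

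Pard6a encodes the adaptor Par6α, which joins Cdc42 and the kinase to Par3. All 3 of its probes had lower means in HeCo. The brightest (ILMN_3114759) ran from 9.54 to 9.83 with a median of 9.67 in HeCo, and from 9.75 to 9.84 with a median of 9.76 in wild type. Wild-type arrays lay within a narrow band (SD 0.04, n = 8) and HeCo arrays spread more (SD 0.10, n = 8), 6 of them below every wild-type array. The 3 probes had differences of -0.09 (SE 0.06), -0.10 (SE 0.06) and -0.08 (SE 0.08), each with 2 of 8 HeCo arrays above the wild-type mean and limma adjusted p of 0.79, 0.79 and 0.871. Their unadjusted limma p were 0.126, 0.124 and 0.337, and the exact permutation test of each probe alone gave unadjusted two-sided p of 0.0297, 0.0444 and 0.266. On other probes the exact p was larger than the limma p, as on Cdh2 (0.0822 against 0.0549) and on the Ctnnb1 probe ILMN_2616556 (0.179 against 0.0888). The exact test was not run on all kept probes, so no share over the array stands beside its p-values. The Pard6a probes share a gene and the same 16 RNA samples, so they are not 3 independent results. With each array scaled to the same median instead of quantile normalization, the differences were -0.02, -0.04 and -0.02. That scaling moved the median of all kept probes to 0.05, and relative to it the differences were -0.08, -0.09 and -0.07.

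**Figure D3:**
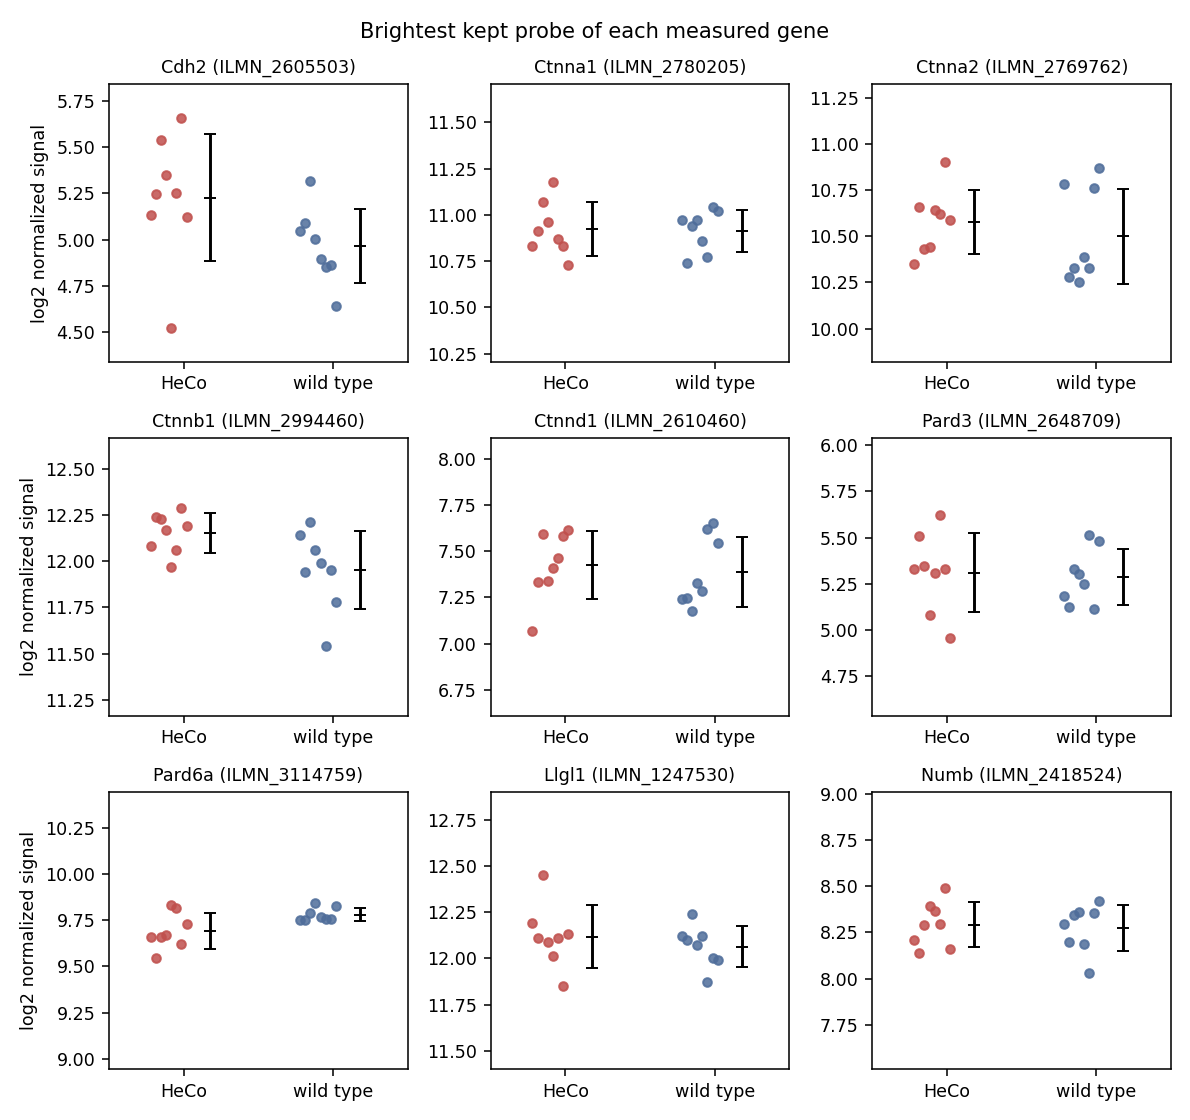
Log2 normalized signal of the brightest kept probe of the 9 measured genes, HeCo left and wild type right, 1 point for each of 8 arrays, with mean and SD as bars beside the points. Every panel spans the same height in log2 units at its own level, and the groups overlap in each; HeCo 13 is the low Cdh2 point at 4.52 and wild type 10 the low Ctnnb1 point at 11.54.

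Llgl1 encodes a homologue of the Drosophila tumour suppressor Lgl, which acts against the Par complex at the basolateral membrane. Both its probes were bright. The log2 signal of ILMN_1247530 was 11.85 to 12.45 with a median of 12.11 in HeCo, and 11.87 to 12.24 with a median of 12.08 in wild type. HeCo 7 was the highest and HeCo 15 the lowest HeCo array on both probes, and wild type 10 the lowest of wild type. The differences were 0.05 (SE 0.07, 95% interval -0.09 to 0.20) and 0.06 (SE 0.07, 95% interval -0.07 to 0.20). Without HeCo 7 and HeCo 16 that of ILMN_1247530 was -0.00472.

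Numb encodes an endocytic adaptor that restrains Notch and supports cadherin traffic to the junction. Its brightest probe (ILMN_2418524) ran from 8.14 to 8.49 with a median of 8.29 in HeCo, and from 8.03 to 8.42 with a median of 8.32 in wild type. The difference was 0.02 (SE 0.07, 95% interval -0.13 to 0.17). A dim Numb probe, detected on 5 of 8 HeCo arrays and 4 of 8 wild-type arrays, had 0.10 (SE 0.11), and the other 4 of its 6 probes were detected on no array.

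The wider machinery was read through 8 lists of other genes with roles at the junction, in apical and basal polarity, around Numb and around β-catenin, each gene given by its brightest kept probe. Of 92 listed genes 74 were measured, and 0 passed in either direction over all kept probes. At an unadjusted p under 0.05 there were 5 (6.76%, against 6.98% of all kept probes). Of the 74 genes 40 had a higher and 34 a lower mean in HeCo, with a median log2 difference of 0.01, where 9260 of all 18532 kept probes had a higher mean. With each array scaled to the same median the list median was 0.07, and 68.6% of all kept probes had a higher mean. Of the 16 list genes named by rule below, 12 had a difference of larger size within title numbers 9 to 16 than within 1 to 8. Between these numbers 3 genes (Mark1, Dlg3 and Ap2a1) turned their sign. The 16 genes were picked by their p on these same arrays. The same counts were not made over all kept probes, so they are not read as a trait of these genes.

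Among cadherins and nectins, the adhesion receptors, 10 of 12 genes were measured, 5 with a higher and 5 with a lower mean in HeCo (median 0.00185). The 2 smallest p belonged to Cdh6, a type II cadherin (-0.17, SE 0.10), and to Nectin3 (0.09, SE 0.07). Catenin relatives and linkers to actin had 9 of 12 measured genes higher in mean (median 0.07). There the actin cross-linker Actn1 had 0.22 (SE 0.10, 7 of 8 HeCo arrays above the wild-type mean, limma adjusted p = 0.701), and the α-catenin relative Ctnnal1 had 0.16 (SE 0.10), with -0.04 (SE 0.12) for its other kept probe.

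Partners of the Par complex had 8 of 11 measured genes higher in mean (median 0.05), with 0.11 for each of the polarity kinases Mark1 (SE 0.07) and Mark2 (SE 0.09). Prkcz, the other atypical protein kinase C gene, named outside the rule because Prkci was not measured, had 0.05 (SE 0.06). The other kept Prkcz probes had 0.02, 0.00849 and 0.00116. Mark1 had 0.22 and -0.00539 within title numbers 1 to 8 and 9 to 16, and Mark2 0.01 and 0.20. The other kept Mark2 probe had -0.09 (SE 0.12). In the Crumbs complex, which organises the apical membrane beside the Par complex, 6 of 10 genes were measured, and Crb1, Crb2 and Crb3 themselves had no kept probe. Of the 6 genes 4 were higher in mean (median 0.01). The small adaptor Lin7b had -0.26 (SE 0.12, limma adjusted p = 0.704), and its other 3 kept probes had -0.39, -0.30 and -0.21. Within title numbers 1 to 8 and 9 to 16 the first of these Lin7b probes had -0.09 and -0.44. Its relative Lin7c had 0.24 (SE 0.14), and 0.05 without HeCo 15 and wild type 10.

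In the Scribble, Lgl and Dlg module 4 of 9 measured genes were higher in mean (median -0.00897). The 2 smallest p belonged to Stxbp5 (tomosyn, an Lgl relative) and to the scaffold Dlg3. Stxbp5 had 0.13 (SE 0.09), and 0.03 without HeCo 15 and wild type 10, with -0.02 (SE 0.10) for its other kept probe. Dlg3 had -0.09 (SE 0.08), and 0.03 and -0.21 within title numbers 1 to 8 and 9 to 16. Around Numb, 4 of 9 measured partners and Notch receptors were higher in mean (median -0.00633). The adaptor subunit Ap2a1, through which Numb meets clathrin, had -0.19 (SE 0.11) with -0.19 (SE 0.10) for its other kept probe. The kinase Aak1 had 0.15 (SE 0.09) with 0.03 (SE 0.09) for its other kept probe. Within title numbers 1 to 8 and 9 to 16 the first Ap2a1 probe had 0.02 and -0.41.

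In the β-catenin destruction complex 3 of 6 measured genes had an unadjusted p under 0.05, Btrc and Axin1 with a lower and Apc with a higher mean in HeCo, and none passed. Among all kept probes 6.98% had such a p, 3.12% lower and 3.86% higher. Of the 6 genes 5 had a lower mean in HeCo (median -0.12). Btrc, the F-box protein that marks β-catenin for degradation, ran from 7.22 to 7.77 in HeCo and from 7.70 to 8.12 in wild type, and 0 of 8 HeCo arrays lay above the wild-type mean. Its difference of -0.26 (SE 0.09, 95% interval -0.44 to -0.08) did not pass (limma adjusted p = 0.55), and its other kept probe had -0.18 (SE 0.10). Within title numbers 1 to 8 and 9 to 16 the first Btrc probe had -0.14 and -0.38. The tumour suppressor Apc, a scaffold of the complex, had 0.19 (SE 0.08, limma adjusted p = 0.66), with 0.34 and 0.04 within title numbers 1 to 8 and 9 to 16. Axin1, named after its value was seen, had -0.15 (SE 0.07). Nuclear factors and targets of Wnt and β-catenin had 5 of 11 measured genes higher in mean (median -0.03). The 2 smallest p belonged to Ccnd1 (cyclin D1; -0.15, SE 0.08) and to the transcription factor Lef1 (0.21, SE 0.12), the Lef1 probe being detected on 6 of 8 HeCo arrays and 3 of 8 wild-type arrays. The target Axin2, also named after its value was seen, had 0.00389 (SE 0.08).

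**Figure D4:**
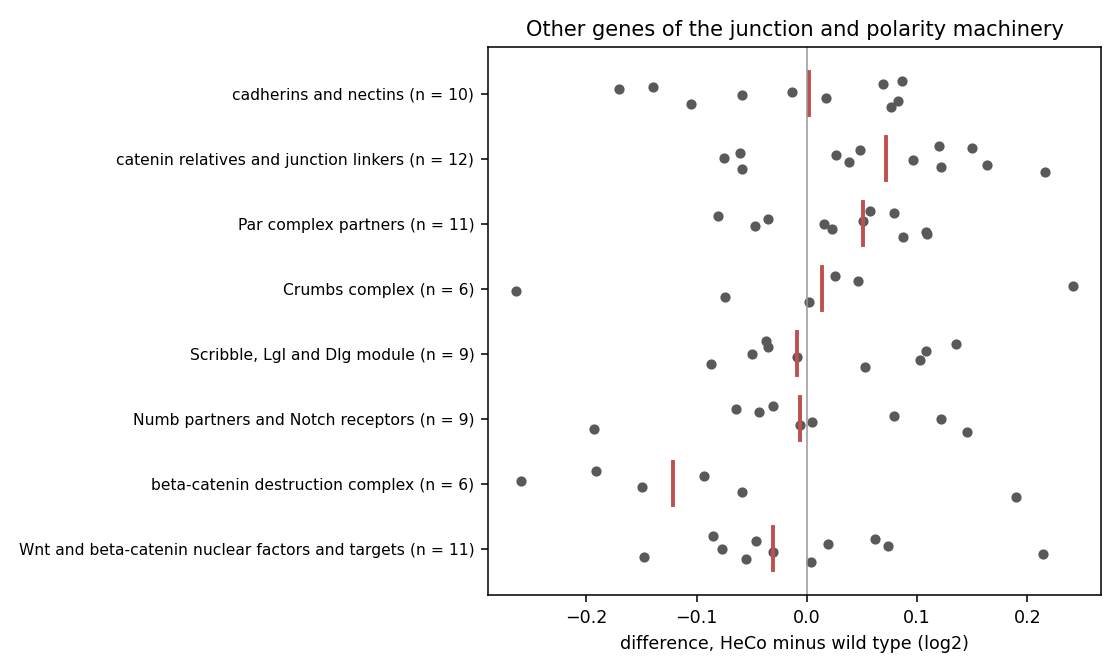
Log2 difference (HeCo minus wild type) of the brightest kept probe of 74 further genes, 1 point a gene, in 8 lists, with the list median as a red bar; the vertical spread within a list has no meaning. All points lie between -0.26 and 0.24, and none passed the test.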

How the data were processed

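Biotin-labelled cRNA of 16 brain RNA samples was hybridised to single-colour Illumina bead arrays, per the labels' protocols. The intensities deposited by the authors are linear probe signals, none negative, whose array means differ, and a detection p-value deposited by the authors stands beside each. Per the submitters' processing notes GenomeStudio was used; its version and any background subtraction are not given in the sources used here. A deposited series matrix of intensities, which lay within 0.0179 (log2) of a quantile normalization without background correction, served as an alternative.

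Signals were put on the log2 scale with neqc (limma 3.58.1, R 4.3.3, offset 16), the background being inferred from the detection p-values. To be kept, a probe needed detection (p under 0.05) on 8 or more of the 16 arrays, which left 18532. Symbols came from the platform annotation, updated through Entrez identifiers with a RefSeq table of GRCm38.p6. The difference, HeCo minus wild type, came from lmFit and eBayes (trend in the variance, without covariates), with two-sided p-values adjusted by Benjamini-Hochberg over all kept probes. Exact tests used all 12870 splits (smallest p 0.000155), and correlations 100000 permutations (scipy 1.17.1). Title numbers are not shared between groups, so no arrays were paired. The fit was tested on simulated data.

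The genes, lists and tests were chosen with earlier results of these data known. Named genes are the 10 genes, Eml1, and, as no list gene passed the threshold, those 2 of each list whose p was lowest; exceptions are marked. Pals1 was matched as Mpp5. The number of arrays limits the precision. Probe and protein sequences were not used here.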

Additional observations from a re-analysis of the deposited data

Results flagged for a closer look

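In 70 groups of 8 arrays, of the 19 kept probes and the 16 named list genes, 5 values, on 3 arrays, stood apart from the rest of their group by a gap that was large for the group's range (Dixon's 95% criterion), where chance gives such a value in about 1 in 20 groups. On Cdh2 (ILMN_2605503) HeCo 13 had a log2 signal of 4.52, with the other HeCo arrays from 5.12 to 5.66. On the Ctnnb1 probe ILMN_2616556 HeCo 15 had 4.55, with the other HeCo arrays from 5.61 to 6.32, and wild type 10 had 7.65, with the other wild-type arrays from 5.30 to 6.38. Wild type 10 was also apart on Lin7c, at 5.08 with the others from 5.70 to 6.08, and on Stxbp5, at 7.35 with the others from 7.63 to 7.84. Of the 5 values 3 were of wild type 10, which had the lowest mean signal and the fewest detected probes (17694) of all arrays. The groups come from the same arrays and some probes share a gene, so they are not independent of each other.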

How the results depend on the processing

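Under 32 alternatives, of which 1 was chosen after seeing the data (without HeCo 15 and wild type 10), 0 of the kept probes of the 10 genes and 0 of the list genes passed. The smallest adjusted p of the 10 genes' probes lay between 0.398 and 1.00, and the median difference between 0.00638 and 0.09. The brighter Eml1 probe stayed lower and the second higher in HeCo, both passing, wherever they were tested. Each was detected in only 1 group and kept through that group, so this does not bear on how stable the other results are. Of the 19 probes 12 kept their sign under the 30 to 32 alternatives in which they were tested, and 31 of 591 values changed sign. Many alternatives share most of their arrays with the main fit, so few changes of sign could be seen. The same count was not made over all kept probes. Scaling each array to the same median moved the median of all kept probes by 0.05. Of the called probes 11 of 13 (84.6%) were then higher in HeCo, instead of 10 of 16 (62.5%). The Ctnnb1 probe ILMN_2616556 ranged from -0.92 to -0.00138, and Lin7c from 0.05 to 0.39. Leaving out 1 array at a time, Cdh2 lay between 0.20 (without HeCo 15) and 0.36 (without HeCo 13), and the brightest Ctnnb1 probe between 0.14 (without wild type 10) and 0.24 (without wild type 3). No paired analysis was possible because the groups share no replicate number. Of the 19 probes 7 were not detected on every array, so that signal over background limits them.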
